A study of Mus musculus with 14 samples.

Results

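The 8 members described here are Arc, Homer1, Homer2, Homer3, Dlg4, Shank1 and Shank3, genes of the postsynaptic side of excitatory synapses, and the cell-surface gene Amigo3. They were measured in mouse cortical neuron cultures that were stimulated for 1 h. They were taken by symbol from a table of 45802 features, and each had a value in all 14 libraries. The cultures were primary cortical neurons of wild-type C57BL/6 mice, kept for 12 days in vitro, and total RNA depleted of ribosomal RNA was sequenced as paired-end reads of 100 bases. Bicuculline, a blocker of GABA-A receptors that disinhibits the network, was given at 20 µM (3 libraries). Peptides produced by the neuronal membrane proteasome (NMP peptides) were given at 4% by volume, alone (3 libraries) or together with 100 µM APV, an antagonist of NMDA receptors (3 libraries, the APV group). The remaining groups received, also at 4%, the peptide preparation after digestion by proteinase K (PK-cleaved NMP peptides, 3 libraries), or 1% DMSO (2 libraries, replicates 2 and 3). The labels give a DMSO content for the DMSO group alone, and APV without peptides was not analysed here. What separates the biological replicates (cultures, animals or litters) is not given in the sources used here, so p-values reflect the spread among these libraries. Values are log2 signals per length of transcript, quantile-normalised by the authors, so that every library has the same median of 2.19. The read depth is unknown.

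Arc is the classical dendritic immediate-early gene: its mRNA is transcribed within minutes of synaptic activity, and its protein promotes the endocytosis of AMPA-type glutamate receptors. Homer proteins bind group 1 metabotropic glutamate receptors and Shank proteins, and long Homer forms multimerise through a coiled coil. The short form Homer1a lacks that coiled coil, is itself induced by activity, and competes with the long forms. Dlg4 encodes PSD-95, the membrane-near scaffold that holds glutamate receptors, and Shank proteins form the deeper layer that joins PSD-95 complexes to Homer and actin. Amigo3 encodes a cell-surface protein with leucine-rich repeats and an immunoglobulin domain.

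The cultures are labelled as cortical neurons, and 5 of 5 excitatory neuron markers and 5 of 5 pan-neuronal markers had a value in every library. The antilogged signals of these markers summed to 154 to 194 and to 895 to 1214 per library. A value alone does not mark a cell type, as the microglial gene Aif1 had one in all 14 libraries, at 0.54 or less. Markers of other cells were present too. The 8 astrocyte markers summed to 401 to 415 in the APV group, above the 325 to 386 of all other libraries. This sum rests most on abundant markers such as Slc1a3 (up to 190). Gfap, on the same list, had its lowest mean log2 signal in the APV group (2.71, against 2.86 to 3.44). The other astrocyte markers are not given singly by group. The 5 inhibitory neuron markers summed to 108 to 119 in the APV group, below the 123 to 140 of all other libraries. The oligodendrocyte lineage markers summed to 118 to 176 over all libraries. Microglial markers (0.26 to 0.64) and endothelial and mural markers (1.46 to 2.33) were near 0, and the endothelial gene Cldn5 had a value in only 2 libraries. In such bulk RNA, fewer cells of a type and less RNA per cell cannot be told apart.

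Sequence upstream of the gene start is shown for Homer1, the member besides Arc that is known as activity-regulated, and for Dusp1, Btg2 and Egr4, which are among the 5 genes whose values most resembled those of Arc. Windows were matched for 6 of the 8 members, not Arc and Shank1, and for 4 of those 5 genes, not Ier2. The letters come from RefSeq, build GRCm38.p6, and cover the 250 bases before the start. Capitals mark the cAMP response element (CRE) half-site TGACG or its reverse complement CGTCA, searched on both strands. A full CRE, TGACGTCA, holds both and so counts as 2 overlapping half-sites. The Homer1 window lies at chr13:93303507-93303756 (plus strand), the Dusp1 window at chr17:26508473-26508722 (minus strand), the Btg2 window at chr1:134079156-134079405 (minus strand) and the Egr4 window at chr6:85513590-85513839 (minus strand).
Homer1: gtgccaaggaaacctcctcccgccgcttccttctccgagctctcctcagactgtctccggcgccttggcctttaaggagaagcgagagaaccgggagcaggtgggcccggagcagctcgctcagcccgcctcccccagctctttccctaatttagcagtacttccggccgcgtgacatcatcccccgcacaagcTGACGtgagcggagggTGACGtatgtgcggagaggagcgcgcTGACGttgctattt
Dusp1: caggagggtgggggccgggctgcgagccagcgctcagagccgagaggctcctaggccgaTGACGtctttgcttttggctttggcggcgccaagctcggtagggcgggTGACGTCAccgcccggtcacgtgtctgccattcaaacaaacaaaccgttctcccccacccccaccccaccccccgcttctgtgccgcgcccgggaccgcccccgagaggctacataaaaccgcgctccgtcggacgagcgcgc
Btg2: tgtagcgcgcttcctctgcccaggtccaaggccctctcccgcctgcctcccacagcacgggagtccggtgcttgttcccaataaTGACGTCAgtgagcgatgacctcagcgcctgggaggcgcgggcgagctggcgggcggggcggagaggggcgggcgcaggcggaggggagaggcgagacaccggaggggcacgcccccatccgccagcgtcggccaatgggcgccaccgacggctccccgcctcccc
Egr4: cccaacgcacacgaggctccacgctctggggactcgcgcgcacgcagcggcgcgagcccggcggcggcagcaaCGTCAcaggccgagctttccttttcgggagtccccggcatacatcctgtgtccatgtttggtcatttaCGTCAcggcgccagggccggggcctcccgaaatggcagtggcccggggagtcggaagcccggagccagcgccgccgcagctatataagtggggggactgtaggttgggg
The Homer1 window shown held 3 half-sites, starting 56, 40 and 14 bases before the gene start, and no full CRE. Another Homer1 window, at chr13:93307784-93308033, held neither. The gene start is at 93303757, while the short transcript with the structure of Homer1a, described below, starts at 93304495. Dusp1 held a full CRE that starts 143 bases before its start and a further half-site at 191 bases. Btg2 held a full CRE at 166 bases. Egr4 held 2 half-sites, at 177 and 109 bases, and no full CRE, and Gadd45b, the remaining gene with a window, held neither. Of 32851 windows of 250 bases in the RefSeq table, 1.55% held a full CRE and 17.8% held at least 1 half-site. Among the other members, 1 of the windows of Dlg4 held a half-site 76 bases before the start that the window precedes. That window, at chr11:70023732-70023981, lies inside the gene, whose span begins at 70017203. The windows of Homer2, Homer3, Shank3 and Amigo3 held none. The motif GCGNGGGCG, in the form that EGR proteins bind, was found in 4.7% of all windows. It occurred in 1 of the windows of Homer2, 23 bases from its start, before Btg2 at 131 bases and before Gadd45b at 30 bases. The Shank3 window, at chr15:89499358-89499607, held the motif 146 and 22 bases before the start that the window precedes. That window lies inside the gene, whose span begins at 89493013. These matches describe letters in the windows and are not measured binding sites.

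At the signals per length averaged over all libraries, Dlg4 was the most abundant member (antilogged mean log2 signal 134), followed by Shank3 (20.6), Shank1 (19.7), Arc (11.6), Homer1 (11.2), Homer2 (6.99), Homer3 (4.93) and Amigo3 (1.08). The average of Arc hides the widest range of the members. Arc spanned 4.91 log2 units over the libraries, against 0.34 for Dlg4, 0.36 for Homer3, 0.53 for Homer2, 0.55 for Shank3, 0.60 for Homer1, 0.90 for Shank1 and 1.94 for Amigo3.

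Arc (chromosome 15, 74669081 to 74672570) was the member whose level depended on the treatment. Its log2 signal was 6.65, 5.78 and 6.57 in the bicuculline libraries, 4.07, 4.21 and 3.20 with NMP peptides, 2.43, 2.94 and 2.07 with NMP peptides plus APV, 2.81, 2.62 and 1.85 with PK-cleaved NMP peptides, and 1.74 and 2.63 with DMSO. The bicuculline libraries were all higher than every other library, and the NMP peptide libraries were all higher than every library of the groups with APV, with PK-cleaved NMP peptides and with DMSO. Those last 3 groups overlapped each other. The group means were 6.33 ± 0.48 with bicuculline, 3.82 ± 0.55 with NMP peptides, 2.48 ± 0.43 with NMP peptides plus APV and 2.43 ± 0.51 with PK-cleaved NMP peptides (SD, n = 3 each), and 2.19 ± 0.63 with DMSO (SD, n = 2). A moderated F-test in limma over the 5 groups called Arc (adjusted p = 3.43e-05, Benjamini-Hochberg over 10877 genes) and none of the other 6 members tested, whose smallest adjusted p was 0.72. Of all genes tested, 1.65% were called.

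**Figure D1:**
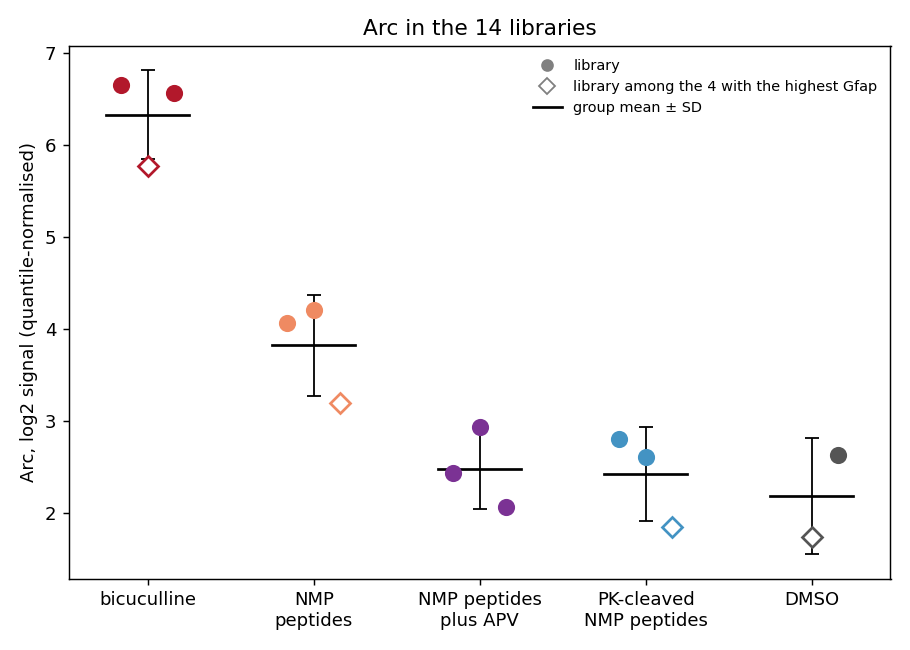
Arc log2 signal (vertical axis) in each of the 14 libraries, by group, with the group mean and SD as bars. Bicuculline libraries sit between 5.78 and 6.65, NMP peptide libraries between 3.20 and 4.21, and the other 3 groups overlap between 1.74 and 2.94. Open diamonds mark the 4 libraries with the highest Gfap, each of which is the lowest of its group for Arc.

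Arc rose under bicuculline against every other group. The log2 fold change was 4.15 against DMSO (95% confidence interval 3.34 to 4.96), 3.91 against PK-cleaved NMP peptides (3.18 to 4.63), 3.85 against NMP peptides plus APV (3.13 to 4.58) and 2.51 against NMP peptides (1.78 to 3.24), with limma adjusted p of 5.32e-05, 2.07e-05, 1.41e-05 and 0.00897 in that order. Of all genes, 5.81%, 4.16%, 15.1% and 3.29% had bicuculline libraries that were all higher in these comparisons, in the same order. Higher calls made up 0.469% of all genes against DMSO, 0.533% against PK-cleaved NMP peptides, 2.38% against NMP peptides plus APV and 0.175% against NMP peptides. Arc held rank 6 of 10877 by p against DMSO and rank 4 against NMP peptides. The comparisons share the bicuculline libraries, so they are not independent. Without bicuculline replicate 1, calls over all genes against NMP peptides fell from 19 to 4 (0.0368%). Arc also lost its call there (limma adjusted p = 0.0502). The direction and size stayed, at 2.19 to 2.79 over all alternatives.

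With NMP peptides the Arc difference was smaller, and no call was made. Arc was higher by 1.64 on the log2 scale against DMSO (interval 0.83 to 2.45, limma adjusted p = 0.44), by 1.40 against PK-cleaved NMP peptides (0.67 to 2.12, adjusted p = 0.592) and by 1.35 against NMP peptides plus APV (0.62 to 2.07, adjusted p = 0.0708). All 3 intervals lie above 0, and unadjusted p-values were 0.000694, 0.00103 and 0.0014. The fit was unpaired. Over all genes, replicate numbers paired NMP peptides with PK-cleaved NMP peptides (r = 0.51, 0.499 and 0.613), and a paired test was not run. Higher calls were 0.0184%, 0.0827% and 0.883% of all genes in these 3 comparisons. Genes whose NMP peptide libraries were all higher, as those of Arc were, made up 4.28% against DMSO, 2.48% against PK-cleaved NMP peptides and 12.2% against NMP peptides plus APV. Against the group with APV, Arc was called when NMP peptides replicate 3 was left out (1.66, adjusted p = 0.037) and when only the 2 compared groups were fitted (adjusted p = 0.0403). Calls in either direction were then 0.929% and 1.57% of all genes, against 1.43% with all libraries and groups.

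Between the 3 groups with low Arc, no difference was detected, and the intervals were wide. The Arc difference was 0.29 between the APV group and DMSO (interval -0.52 to 1.11), 0.24 between PK-cleaved NMP peptides and DMSO (-0.57 to 1.06) and 0.05 between the APV group and PK-cleaved NMP peptides (-0.68 to 0.78). In fold terms the first of these intervals spans 0.698 to 2.15. Calls in either direction were 0.625% of all genes for the APV group against DMSO and 1.39% for the APV group against PK-cleaved NMP peptides. PK-cleaved NMP peptides against DMSO had 0 calls in limma (0%), with 114 genes (1.05%) at an unadjusted p under 0.05.

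The spread of Arc within groups was large, with a residual SD of 0.512 against a median of 0.127 over all genes tested. Gfap, the intermediate filament gene of astrocytes, was 2.67, 4.18 and 3.47 with bicuculline, 2.41, 2.87 and 4.15 with NMP peptides, 2.61, 2.76 and 2.77 with NMP peptides plus APV, 2.45, 2.15 and 3.97 with PK-cleaved NMP peptides, and 4.13 and 2.68 with DMSO. The 4 libraries highest in Gfap (3.97 to 4.18, against 2.15 to 3.47 in the other 10) fell in 4 groups, and each held the lowest Arc of its group. APV replicates 2 and 3 were nearly equal in Gfap (2.76 and 2.77) and held the highest and the lowest Arc of their group (2.94 and 2.07). The astrocyte list as a whole did not separate them, with sums of 356, 364, 356 and 366 in those 4 libraries, within the range of 325 to 415. Whether Gfap has a part in the Arc values was not tested.

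Compared within these 2 sets of libraries, the Arc differences were nearly the same. Bicuculline exceeded DMSO by 4.04 in the high-Gfap libraries and by 3.98 in the others, and NMP peptides by 2.58 and 2.47. NMP peptides exceeded DMSO by 1.46 and 1.51, and PK-cleaved NMP peptides by 1.35 and 1.42. The set has a single library per group on the high side and was formed after the values were seen. As it holds the lowest Arc library of 4 groups, a covariate for it takes up part of the spread of Arc itself. With membership in it as a covariate, also added after seeing the data, NMP peptides were called higher for Arc against DMSO (1.49, limma adjusted p = 0.00115), against PK-cleaved NMP peptides (1.40, adjusted p = 0.000636) and against NMP peptides plus APV (1.64, adjusted p = 7.17e-05). Calls over all genes also increased with this covariate, to 18, 19 and 299 genes (0.165%, 0.175% and 2.75%), against 2, 9 and 156 without it. Without the 4 libraries, only the last of these Arc differences was called (1.66, adjusted p = 0.00341), among 91 genes (0.837%).

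The 5 genes most like Arc by Pearson r over the 14 libraries were Dusp1 (0.987), Ier2 (0.984), Egr4 (0.984), Btg2 (0.981) and Gadd45b (0.98). Dusp1 encodes a phosphatase of MAP kinases, Ier2 an immediate-early nuclear protein, Egr4 a zinc-finger transcription factor, Btg2 an antiproliferative factor and Gadd45b a stress-responsive protein linked to DNA demethylation. These correlations describe libraries that share their treatments, and they remained at 0.953 to 0.969 without the 2 libraries farthest from the median. Spearman's rho was 0.873 to 0.969, and 2 of the 5 genes were also among the 5 with the highest rho. After the group means were removed, r with Arc was still 0.676 for Btg2 to 0.879 for Egr4. The deviations inside groups were part of the values by which the 5 genes were chosen. This likeness inside groups was therefore partly selected and was not tested.

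Being chosen for likeness to Arc over the same libraries, the 5 genes are described without tests. Egr4 averaged 6.32 with bicuculline, 4.40 with NMP peptides, 2.98 with NMP peptides plus APV, 3.36 with PK-cleaved NMP peptides and 2.93 with DMSO. Dusp1 averaged 5.69, 4.18, 3.06, 3.25 and 3.10 in the same order of groups. Each of the 5 moved over a smaller range than Arc: bicuculline exceeded DMSO by 2.22 to 3.39 on the log2 scale, and NMP peptides exceeded DMSO by 0.92 to 1.47. With APV beside the peptides, their differences from DMSO were -0.08 to 0.07.

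**Figure D2:**
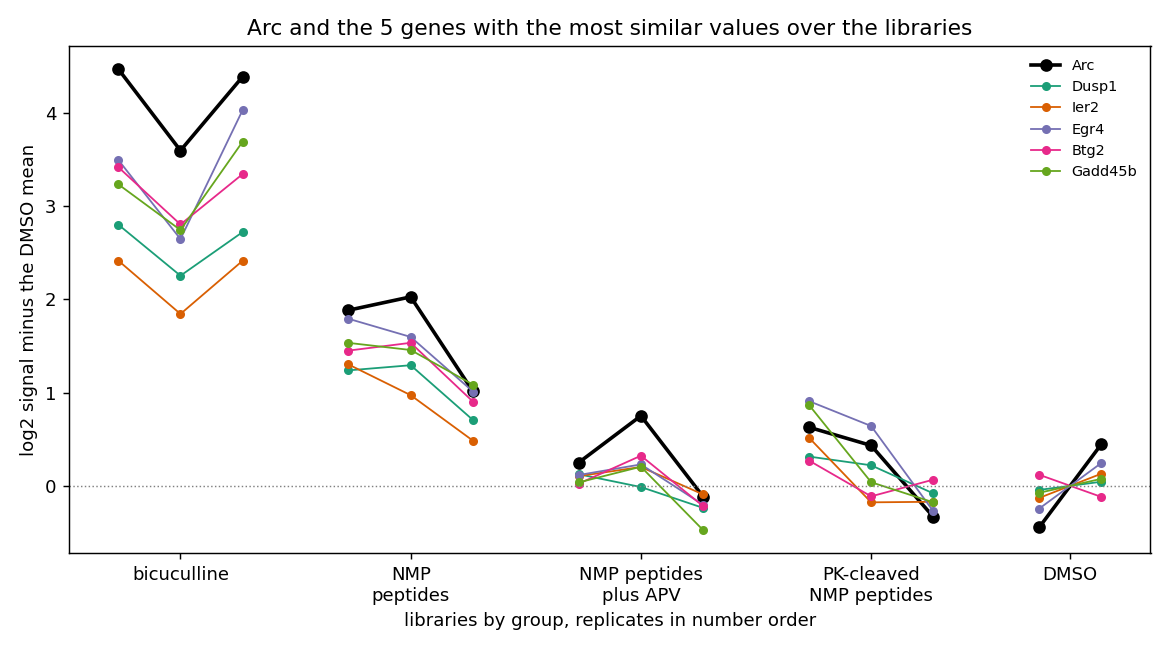
Log2 signal minus the DMSO mean (vertical axis) for Arc, in black, and the 5 genes with the most similar values, in the 14 libraries by group. Under bicuculline Arc lies above the 5 genes in every library, and all 6 genes dip in bicuculline replicate 2 and in NMP peptides replicate 3.

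Homer1 (chromosome 13, 93303757 to 93405129) had log2 signals of 3.50, 3.45 and 3.91 with bicuculline, 3.37, 3.54 and 3.44 with NMP peptides, 3.49, 3.31 and 3.46 with NMP peptides plus APV, 3.32, 3.48 and 3.42 with PK-cleaved NMP peptides, and 3.57 and 3.49 with DMSO. Bicuculline replicate 3 was the highest of all, while the other bicuculline libraries lay among those of DMSO and NMP peptides. The log2 difference of bicuculline from DMSO was 0.09 (interval -0.17 to 0.35, which is 0.887 to 1.27 in fold). The largest difference was 0.21 for bicuculline against PK-cleaved NMP peptides (interval -0.02 to 0.45, limma unadjusted p = 0.0675). NMP peptides differed from DMSO by -0.08 (interval -0.34 to 0.18). All libraries with APV and with PK-cleaved NMP peptides lay below both DMSO libraries, by a narrow gap, as 21% and 9.15% of all genes did in these comparisons.

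The table gives 1 value for Homer1, although the gene makes long and short forms. GENCODE lists 11 coding transcripts on GRCm38, of which 4 end before the last exon of the gene. The one that ends first has 5 exons and codes for 186 residues, against 354 to 370 in the transcripts of 9 or 10 exons. Its last exon starts at 93355940 and runs to 93360462, while in the other transcripts with that exon start the exon ends at 93356079. This is the structure known for Homer1a. A difference in Homer1a alone could not be told apart from the gene's summed signal here.

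Homer2 and Homer3, relatives with long forms that also bind metabotropic receptors, were lower in abundance. Homer2 (chromosome 7, 81600481 to 81706925) was at 2.99, 2.74 and 2.76 with bicuculline, 2.71, 3.01 and 2.67 with NMP peptides, 2.63, 2.58 and 2.68 with NMP peptides plus APV, 2.75, 3.01 and 2.85 with PK-cleaved NMP peptides, and 2.78 and 3.11 with DMSO. The APV libraries were all lower than those of PK-cleaved NMP peptides and of DMSO. The difference of NMP peptides plus APV from DMSO was -0.32 (interval -0.59 to -0.05), with an unadjusted limma p of 0.0246, and an adjusted p of 0.352. An unadjusted p under 0.05 was found for 11.5% of all genes there. A full separation in this direction was common, at 21% of all genes against DMSO and 11.4% against PK-cleaved NMP peptides.

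Homer3 (chromosome 8, 70282880 to 70294361) was at 2.26, 2.33 and 2.35 with bicuculline, 2.31, 2.16 and 2.34 with NMP peptides, 2.29, 2.23 and 2.16 with NMP peptides plus APV, 2.23, 2.21 and 2.49 with PK-cleaved NMP peptides, and 2.52 and 2.35 with DMSO. The DMSO libraries were the highest and the third highest of the 14. Homer3 differed from DMSO by -0.12 with bicuculline (interval -0.35 to 0.10) and by -0.16 with NMP peptides (-0.39 to 0.06). Its largest difference was -0.21, between the APV group and DMSO (-0.43 to 0.02). The libraries of these 3 groups lay wholly below DMSO for this gene, as did 12%, 13.1% and 21% of all genes. Exons of Homer2 and Homer3 overlap genes on the other strand, Gm44570 and Ddx49, and whether strand was used in counting is not given in the sources used here.

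Dlg4 (chromosome 11, 70017203 to 70045535) had the smallest range of the members, while Homer3 had the smaller residual SD within groups (0.104, against 0.119 for Dlg4). Its log2 signal was 7.13, 6.93 and 6.97 with bicuculline, 6.91, 7.13 and 6.91 with NMP peptides, 7.23, 7.07 and 7.24 with NMP peptides plus APV, 6.99, 7.23 and 7.02 with PK-cleaved NMP peptides, and 6.96 and 7.16 with DMSO. All groups overlapped. Bicuculline differed from DMSO by -0.05 (interval -0.26 to 0.17, or 0.832 to 1.12 in fold). NMP peptides differed from NMP peptides plus APV by -0.20 (interval -0.39 to -0.01), with an unadjusted limma p of 0.0448 and an adjusted p of 0.305. At an unadjusted p under 0.05, that comparison held 15.8% of all genes.

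Shank1 (chromosome 7, 44308916 to 44360094) varied most among the scaffolds. It was at 4.62, 4.10 and 4.10 with bicuculline, 4.02, 4.43 and 4.13 with NMP peptides, 4.62, 4.42 and 4.49 with NMP peptides plus APV, 3.71, 4.59 and 4.33 with PK-cleaved NMP peptides, and 4.19 and 4.50 with DMSO. The widest gap inside a group was between PK-cleaved replicates 1 and 2. The difference of bicuculline from DMSO was -0.07 (interval -0.54 to 0.39, or 0.689 to 1.31 in fold). NMP peptides differed from NMP peptides plus APV by -0.32 (interval -0.73 to 0.10).

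Shank3 (chromosome 15, 89493013 to 89560261) was at 4.50, 4.31 and 4.44 with bicuculline, 4.31, 4.42 and 4.29 with NMP peptides, 4.45, 4.13 and 4.50 with NMP peptides plus APV, 4.05, 4.52 and 4.36 with PK-cleaved NMP peptides, and 4.26 and 4.60 with DMSO. No group stood apart. Bicuculline differed from DMSO by -0.01 (interval -0.32 to 0.29) and NMP peptides differed from DMSO by -0.09 (-0.39 to 0.22). Exons of Shank1 and Shank3 overlap 1700008O03Rik and Gm15609 on the opposite strand.

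**Figure D3:**
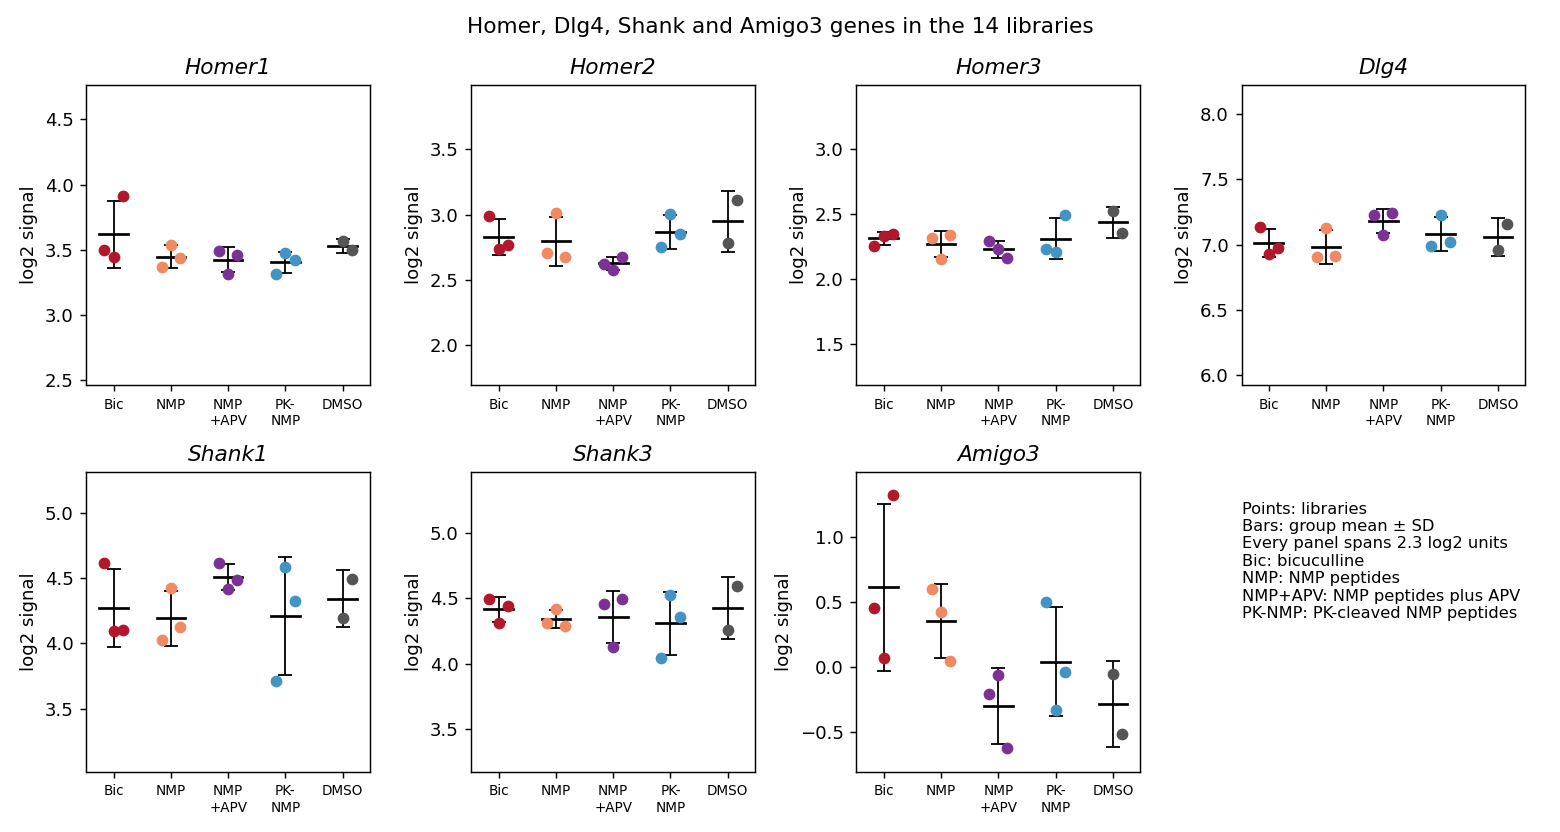
Log2 signal (vertical axis, 2.3 log2 units in every panel) of the 7 members other than Arc in the 14 libraries, by group, with the group mean and SD. For Dlg4, Shank1 and Shank3 every pair of groups overlaps, and Amigo3 is highest in bicuculline replicate 3 at 1.32.

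Of the 6 Homer, Dlg4 and Shank genes, 5 shared much of their order of libraries within groups, and Homer3 did not. Of Homer1, Homer2, Dlg4, Shank1 and Shank3, grouped after their values were seen, 5 of 5 were highest in replicate 2 of the NMP peptide group and of the PK-cleaved group. Over all genes tested, deviations from the group means in these libraries correlated at r = 0.499. The share of all genes with such an order was not computed. All 5 scaffold genes were lowest in bicuculline replicate 2, in APV replicate 2 and in PK-cleaved replicate 1. Other places were split. In the NMP peptide group 3 were lowest in replicate 1 and 2 in replicate 3. Under bicuculline 4 were highest in replicate 1 and 1 in replicate 3, and with APV 2 in replicate 1 and 3 in replicate 3. With DMSO 4 were highest in replicate 3 and 1 in replicate 2. Homer3 was lowest where those genes were highest, at 2.16 in NMP peptides replicate 2 and 2.21 in PK-cleaved replicate 2. The excitatory marker sum was likewise highest in replicate 2 of the NMP peptide group (188, against 154 and 164) and of the PK-cleaved group (192, against 174 and 167), and lowest in APV replicate 2 (170, against 194 and 183). The other low libraries did not match: bicuculline replicate 2 (182, between 193 and 174) and PK-cleaved replicate 1 were in the middle of their groups for that sum. The part of these markers in the scaffold values was not tested.

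Amigo3 (chromosome 9, 108053159 to 108055701) was near the lower end of measured genes and fell below the filter on low values, so its values come from a fit to all 14388 features with a value in every library. It was at 0.45, 0.07 and 1.32 with bicuculline, 0.60, 0.42 and 0.04 with NMP peptides, -0.21, -0.06 and -0.62 with NMP peptides plus APV, 0.50, -0.33 and -0.04 with PK-cleaved NMP peptides, and -0.05 and -0.52 with DMSO. Every library with bicuculline or with NMP peptides was higher than every library with APV or DMSO, and the PK-cleaved libraries overlapped both sides. The order of its group means matched that of Arc for the first 2 places.

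No difference of Amigo3 was called. Bicuculline exceeded NMP peptides plus APV by 0.91 (interval 0.28 to 1.54, limma adjusted p = 0.133) and DMSO by 0.90 (0.19 to 1.60, adjusted p = 0.998). NMP peptides exceeded NMP peptides plus APV by 0.65 (0.02 to 1.28, adjusted p = 0.339) and DMSO by 0.64 (-0.07 to 1.34, adjusted p = 0.959). In the fit to all features, higher calls were 2.08%, 0.375%, 0.73% and 0.0139% of features in these 4 comparisons. In the filtered table, 15.1%, 5.81%, 12.2% and 4.28% of genes had fully separated libraries in the same direction.

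**Figure D4:**
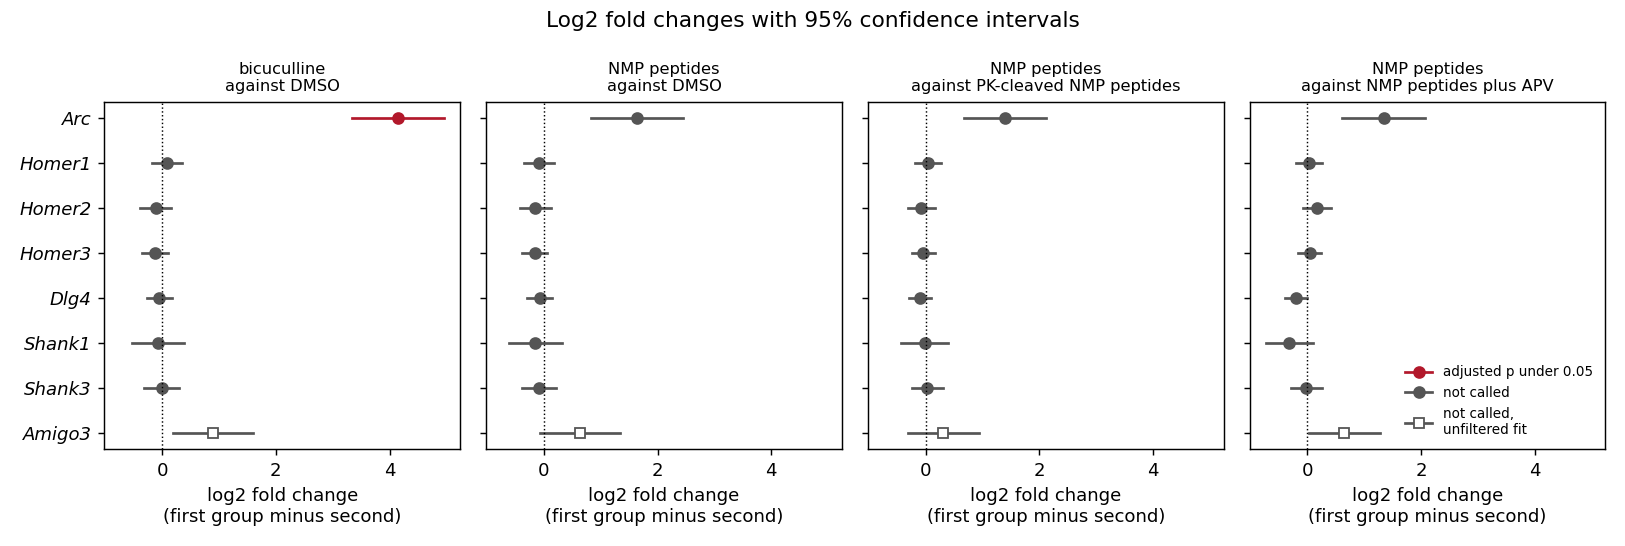
Log2 fold changes (horizontal axis) with 95% confidence intervals for the 8 members in 4 comparisons, the first-named group minus the second. Arc against DMSO under bicuculline, at 4.15, is the only called value (red), and the intervals of the 3 Homer genes and of Shank1 and Shank3 include 0 in all 4 panels.

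Apart from Arc, 0 members were called by limma in any of the 10 comparisons, and 2 values of the members that passed the filter had an unadjusted p under 0.05. These were Homer2 between the APV group and DMSO, and Dlg4 between NMP peptides without and with APV. Few other genes of the postsynaptic density were called. Of 20 other scaffold genes tested, 0 were called in 9 of the 10 comparisons, with at most 2 of them at an unadjusted p under 0.05, in the APV group against PK-cleaved NMP peptides, where 15.6% of all genes had such a p. The exception was Nlgn3, a postsynaptic adhesion protein that binds neurexins, which was called lower under bicuculline against the APV group, at -0.46 (SE 0.12, adjusted p = 0.0413), where lower calls were 0.947% of all genes. In that comparison 4 of the 20 had an unadjusted p under 0.05, as did 18.7% of all genes. Its log2 signal was 4.66, 4.52 and 4.43 with bicuculline, 4.50, 4.75 and 4.58 with NMP peptides, 5.05, 5.01 and 4.94 with NMP peptides plus APV, 4.30, 4.85 and 4.65 with PK-cleaved NMP peptides, and 4.56 and 4.70 with DMSO. The APV libraries stood above all others, and the bicuculline libraries lay within the range of the remaining groups. The median log2 difference of the 20 genes between bicuculline and DMSO was -0.06, against -0.03 over all genes.

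Among 20 AMPA and group 1 metabotropic receptor genes with their auxiliary and trafficking proteins, Nptx2 alone was called. More had an unadjusted limma p under 0.05: 8 of the 20 for bicuculline against the APV group (18.7% of all genes). There were 7 for NMP peptides against the APV group (15.8%), 8 for the APV group against PK-cleaved NMP peptides (15.6%) and 5 against DMSO (11.5%). At most 1 had such a p in the other comparisons. Whether the list differs from all genes was not tested. Nptx2 encodes a secreted neuronal pentraxin that clusters AMPA receptors and is known as an immediate-early gene. It averaged 3.12 ± 0.26 with bicuculline, 2.57 ± 0.20 with NMP peptides, 1.96 ± 0.16 with NMP peptides plus APV and 2.69 ± 0.18 with PK-cleaved NMP peptides (SD, n = 3 each), and 2.58 ± 0.27 with DMSO (SD, n = 2). Nptx2 was higher by 1.16 under bicuculline against NMP peptides plus APV (limma adjusted p = 0.000445). Higher calls were 2.38% of all genes there. Bicuculline against DMSO was not called for Nptx2, with means of 3.12 and 2.58, and the APV mean of 1.96 lay below both. In the APV group Nptx2 was lower by 0.73 against PK-cleaved NMP peptides (adjusted p = 0.0301), where lower calls were 0.781% of all genes. Between NMP peptides and DMSO the Nptx2 difference was -0.004 (interval -0.37 to 0.36). Of 15 partners of Arc and Homer proteins, 0 were called in any comparison. At an unadjusted p under 0.05 there were 4 of the 15 for bicuculline against the APV group, for NMP peptides against the APV group and for the APV group against PK-cleaved NMP peptides, where 18.7%, 15.8% and 15.6% of all genes had such a p, 2 for the APV group against DMSO (11.5% of all genes), and 0 in the other comparisons. The activity index genes Npas4 and Fos, immediate-early transcription factors, were called where Arc was not, higher with NMP peptides against DMSO, against PK-cleaved NMP peptides and against the APV group; whether their differences exceed that of Arc was not tested. With NMP peptides against PK-cleaved NMP peptides they rose by 2.46 (SE 0.27) and 1.94 (SE 0.25), and Egr1, the remaining index gene, was not called.

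Of 20 relatives of Amigo3 and other leucine-rich repeat adhesion genes, 19 passed the filter. Flrt3 was the only call among them, higher by 0.43 in the APV group against DMSO (SE 0.09, adjusted p = 0.0495), where 0.175% of all genes were called higher and 0.45% lower. Its APV libraries (3.82 to 3.87) stood above all others (3.36 to 3.76). An unadjusted limma p under 0.05 was found for 6 of the 19 for bicuculline against the APV group (18.7% of all genes). There were 6 for NMP peptides against the APV group (15.8%), 7 for the APV group against DMSO (11.5%) and 7 against PK-cleaved NMP peptides (15.6%). At most 2 had such a p in the other comparisons. Whether the list differs from all genes was not tested. Amigo2, a paralogue of Amigo3, was the gene that the filter removed. In the fit to all features it was low with APV, at -0.32, -0.39 and -0.32, against 0.54, 0.36 and 0.30 with bicuculline, 0.44, 0.27 and 0.20 with NMP peptides, 0.69, 0.52 and 0.51 with PK-cleaved NMP peptides and 0.50 and 0.43 with DMSO. The APV libraries were lower than all others. In the APV group Amigo2 fell by 0.91 against PK-cleaved NMP peptides (limma adjusted p = 0.0033) and by 0.80 against DMSO (adjusted p = 0.0197), where lower calls were 0.556% and 0.396% of features in that fit. Against NMP peptides plus APV, Amigo2 was higher by 0.64 with NMP peptides (adjusted p = 0.0226) and by 0.74 with bicuculline (adjusted p = 0.0038). Higher calls there were 0.73% and 2.08% of features in that fit. Amigo1, the remaining paralogue, averaged between 2.98 and 3.01 in all 5 groups. The APV group also stood apart in its astrocyte and inhibitory neuron marker sums, given above, and their part in its differences of Arc, Nlgn3, Nptx2, Flrt3, Amigo2 and Homer2 was not tested.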

How the data were processed

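The authors deposited 1 table of log2 signals, quantile-normalised, with 1 column per library. Dashes mark features without a value. The base of the log was checked through exon lengths: with base 2 the antilogged values times length total 1180000 to 1270000 in a library, while base e gives 8350000 to 9080000. Per the submitters' processing notes, GRCm38.p6 was the build. No aligner, counter or annotation is named in the sources used here. Of 45802 features, 18128 had a value in at least 1 library and 15824 to 16231 in each library. The lowest 40% of the 18128 by mean were dropped, leaving 10877 genes with 0 missing values.

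In R 4.3.3, limma 3.58.1 fitted a mean for each group over the 14 libraries and moderated variances by empirical Bayes along a trend with the mean. The p-values are two-sided and were adjusted by Benjamini-Hochberg over all genes within each of 10 comparisons and called under 0.05. The procedure was tested on simulated data. Genes named beside the members were the called genes of 4 pathway lists, the 5 genes most like Arc, and the activity index genes Npas4, Fos and Egr1, a further list. Nptx2, Nlgn3 and Flrt3 are such called genes, Gfap and Cldn5 are from the marker lists, and Amigo1, Amigo2 and Ddn were named after their values were seen. The members and lists were chosen with earlier results of these data known. Replicate numbers were checked by correlating deviations from the group means. Among the groups of 3 libraries they paired NMP peptides with PK-cleaved NMP peptides only (0.51, 0.499 and 0.613), as a property of the data. DMSO, with 2 libraries, could not meet the rule used, which needed 3 shared replicate numbers. Its correlations were 0.542 and 0.169 with bicuculline, 0.305 and 0.349 with the APV group, and negative with the other groups. Positions are from RefSeq and transcripts from GENCODE M21, both on GRCm38.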

Additional observations from a re-analysis of the deposited data

How the results depend on the processing

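The alternatives were no filter, median centring, a replicate block, a fit of the compared groups alone, leaving out each library and, added after seeing the data, dropping the 4 libraries highest in Gfap or taking them as a covariate. The pseudocount alternative did not apply to log2 values. Of 918 member values under alternatives, 911 stayed on the same side of the threshold, 6 were called where the reported value was not, 1 lost its call, and 0 changed direction in a called value. All 7 are Arc. Members called for bicuculline against NMP peptides numbered 1, and 0 to 1 over the libraries left out, with 0 without bicuculline replicate 1. Calls over all genes fell from 19 (0.175%) to 4 (0.0368%) without that library. Between NMP peptides without and with APV, calls over all genes were 156 (1.43%) as reported. They were 101 (0.929%) without NMP peptides replicate 3 and 171 (1.57%) with only the compared groups in the fit. Members called in that comparison numbered 0 as reported, and 0 to 1 over the libraries left out, with 1 without NMP peptides replicate 3. This count was also 1 with only the compared groups in the fit, without the 4 Gfap libraries, and with these as a covariate. With that covariate, 1 member was called for NMP peptides against DMSO and 1 against PK-cleaved NMP peptides, against 0 as reported for both. Calls over all genes moved with it too, as given for Arc. With the replicate block, Arc stayed at 1.40 for NMP peptides against their PK-cleaved form (limma adjusted p = 0.712), and the block changed no call of a member, with 1 member called for each comparison of bicuculline. The block gives each replicate number a shared effect in all 5 groups. It therefore does not model a pairing of NMP peptides with PK-cleaved NMP peptides alone, and a paired test was not run. The 7 other members gave 802 values with 0 calls in limma and a smallest adjusted p of 0.0619. Amigo3, at the lowest level of the members, had a residual SD of 0.423, and read depth could not be computed from quantile-normalised values.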

Other observations

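Among the scaffold genes, the library pattern of Homer1 was close to that of Ddn, which encodes dendrin, a postsynaptic protein of dendrites. Over the 14 libraries Pearson's r was 0.933 and Spearman's rho 0.947, and r was 0.93 without the 2 libraries farthest from the median. The pair was chosen after its values were seen, and all points share the library and its normalisation. Ddn averaged 6.14 ± 0.14 with bicuculline, 6.02 ± 0.08 with NMP peptides, 5.99 ± 0.13 with NMP peptides plus APV and 6.02 ± 0.09 with PK-cleaved NMP peptides (SD, n = 3 each), and 6.10 ± 0.01 with DMSO (SD, n = 2). Like Homer1, it was highest in bicuculline replicate 3, at 6.30, and lowest in APV replicate 2, at 5.85.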
